A study of Homo sapiens with 4 samples.

Results

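The genes described here are 38 genes of the ATF4 stress response and of serine and one-carbon metabolism, of which 37 had a value among the 19140 genes tested. The genes were chosen as a list of symbols, with no threshold on expression. Earlier results of these data were known when this list, and a second list of genes of the same pathways, were chosen. Shares set beside those of all genes therefore describe the lists and are not tests of them. A gene's value was the mean, on the log2 scale, of its probe sets above a dim filter. A probe set is a small group of array probes that covers part of a gene, and 442 of the 487 probe sets that carry only a listed gene's symbol were kept. SHMT1, the cytosolic serine hydroxymethyltransferase, has no value here because its 18 probe sets also carry the symbol of a microRNA gene. MTHFD1L and FGF21 rest on 1 kept probe set each. For MTHFD1L, 22 more probe sets were left out because they carry several symbols.

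The arrays compared Huh7 cells treated with an siRNA against NF90 (siNF90, 2 arrays) with Huh7 cells given the siRNA labelled siNTC (2 arrays). Huh7 cells derive from a human liver carcinoma, and NF90 is an RNA-binding protein with domains for double-stranded RNA. The labels give no siRNA dose, no time of harvest and no word on separate cultures. The p-values set the difference between groups against the spread of arrays within a group, and that spread may be technical. NF90's own gene is not analysed here, and the group labels were taken as they stand.

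ATF4 is a transcription factor whose mRNA is translated more when the initiation factor eIF2 is phosphorylated, as happens in amino acid shortage or stress of the endoplasmic reticulum. It pairs with C/EBP proteins on composite elements near genes that import amino acids, make serine, asparagine and proline, and supply folate-bound one-carbon units. In the mitochondria, SHMT2, MTHFD2 and MTHFD1L pass the one-carbon unit of serine on to formate, and ALDH1L2 instead oxidises it to carbon dioxide with production of NADPH. Liver cells run much of this metabolism, including the path from homocysteine to cysteine through CBS and CTH.

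The differences of the listed genes lay on both sides of 0. Of the 37 genes, 19 had positive and 18 negative differences (siNF90 minus siNTC, log2), and 47.5% of all genes had positive ones. The median difference was 0.012, against -0.018 over all genes tested. Its sign depended on the setting, since it was -0.11 with the median of probe sets, -0.028 without the dim filter and -0.023 to 0.075 when 1 array was left out. Their mean was -0.11 (SD over genes 0.40), against -0.023 (SD 0.41) over all genes, and -0.067 without ALDH1L2. The mean over the 37 genes was 5.962 and 5.892 on the siNF90 arrays and 6.003 and 6.066 on the siNTC arrays. The group ranges did not overlap, but the closest arrays lay near each other, and the SD of this mean between replicates was 0.048. Means on each array were not taken over all genes or without ALDH1L2. The groups overlapped in 19 genes and were apart in the other 18, where 41.1% of all genes had groups without overlap. In 8 of them (21.6%) siNF90 was higher on each array, as it was in 19.2% of all genes, and in 10 (27%) it was lower, as in 22% of all genes. Both shares were near those of all genes.

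**Figure D1:**
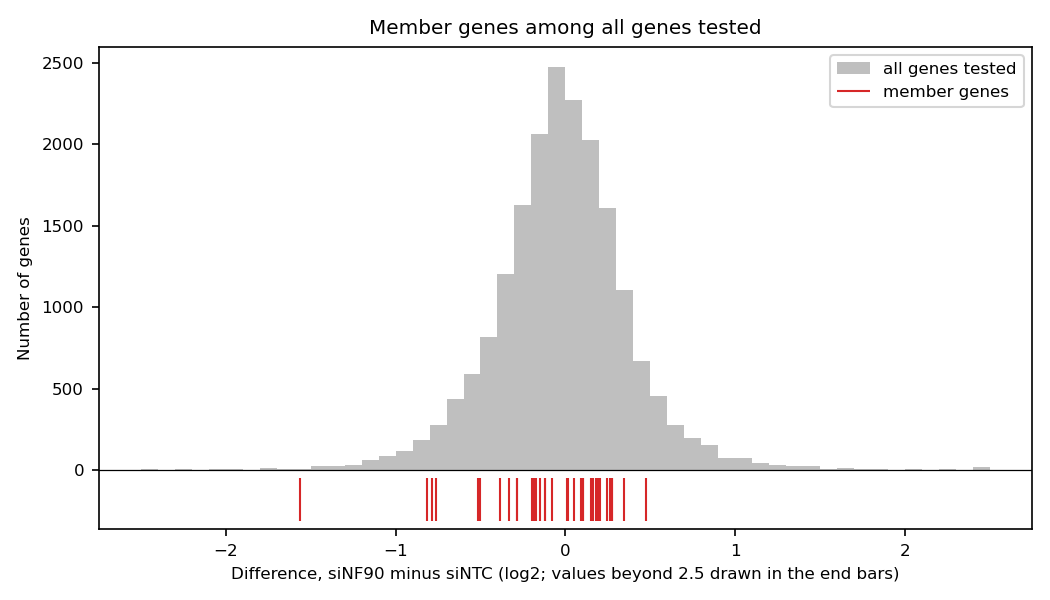
Histogram of the difference siNF90 minus siNTC (log2, x axis) over all 19140 genes tested (number of genes, y axis), with the 37 genes of the list as red ticks beneath. The ticks spread on both sides of 0 within the bulk of all genes, and the tick at -1.56, ALDH1L2, stands apart from the others.

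The gene with the largest difference was ALDH1L2, the mitochondrial formyltetrahydrofolate dehydrogenase. Its value was 5.32 and 4.99 on the siNF90 arrays, against 6.57 and 6.88 on the siNTC arrays. The groups were more than 1 log2 unit apart. ALDH1L2 averaged 5.16 ± 0.23 in siNF90 cells and 6.72 ± 0.22 in siNTC cells (SD, n = 2 each), a difference of -1.56 (SE 0.22, 95% interval -2.15 to -0.98), which is 2.96-fold lower. Of all genes tested, 46 had a lower difference. The limma test, adjusted over all genes by Benjamini-Hochberg, gave ALDH1L2 an adjusted p of 0.514. That test called 0 of the 37 genes and 0% of all 19140 genes at a threshold of 0.05. With a variance prior that follows the level and resists outlying genes (trend and robust prior), limma gave ALDH1L2 an adjusted p of 0.0148 and called it alone of the 37 genes (2.7%), against 0.251% of all genes. In bulk RNA, fewer cells that express a gene and less RNA per cell cannot be told apart.

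CTH, NUPR1 and PCK2 were the next genes by p, and all lay lower in siNF90 cells. CTH encodes cystathionine gamma-lyase, which releases cysteine from cystathionine. It had 5.61 and 5.42 on the siNF90 arrays, against 6.17 and 6.39 on the siNTC arrays. Its difference was -0.76 (SE 0.20, 95% interval -1.27 to -0.25), or 1.70-fold lower, with an adjusted p of 0.514 in limma and 0.137 with the trend and robust prior. NUPR1, a small nuclear stress protein, had 4.95 and 4.93 in siNF90 cells, against 5.57 and 5.88 in siNTC cells. The siNF90 arrays were almost equal and both below the lower siNTC array. NUPR1 differed by -0.79 (SE 0.20, 95% interval -1.30 to -0.27), or 1.72-fold lower, with an adjusted p of 0.514 in limma and 0.171 with the trend and robust prior. PCK2, the mitochondrial phosphoenolpyruvate carboxykinase, had 5.91 and 5.69 in siNF90 cells, against 6.26 and 6.37 in siNTC cells. The PCK2 difference of -0.51 (SE 0.19, 95% interval -1.003 to -0.024) had an adjusted p of 0.555 in limma and 0.271 with the trend and robust prior. These 3 and ALDH1L2 were the genes of the list with an unadjusted limma p under 0.05, 4 lower (10.8%) and 0 higher (0%), where all genes had 5.29% lower and 3.51% higher, or 8.79% in either direction. The lower count was 2 without the second siNF90 array and 2 without the second siNTC array.

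The probe sets of these genes mostly pointed the same way. For ALDH1L2, 19 of 20 probe sets were lower in siNF90 cells, and the groups of those 19 did not overlap. Their differences ran from -2.46 to 0.13, and the positive value came from the dimmest of them. All 13 probe sets of CTH were lower, by -1.78 to -0.098, and all 5 of NUPR1, by -1.33 to -0.22. PCK2 was less even, with 12 of 15 lower and a range from -2.13 to 1.13. In limma's diffSplice test of unequal change among the probe sets of a gene, PCK2 had the smallest false discovery rate of the list, 0.0866. That test called 0 of the listed genes, against 2.76% of the 16175 genes with several probe sets.

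**Figure D2:**
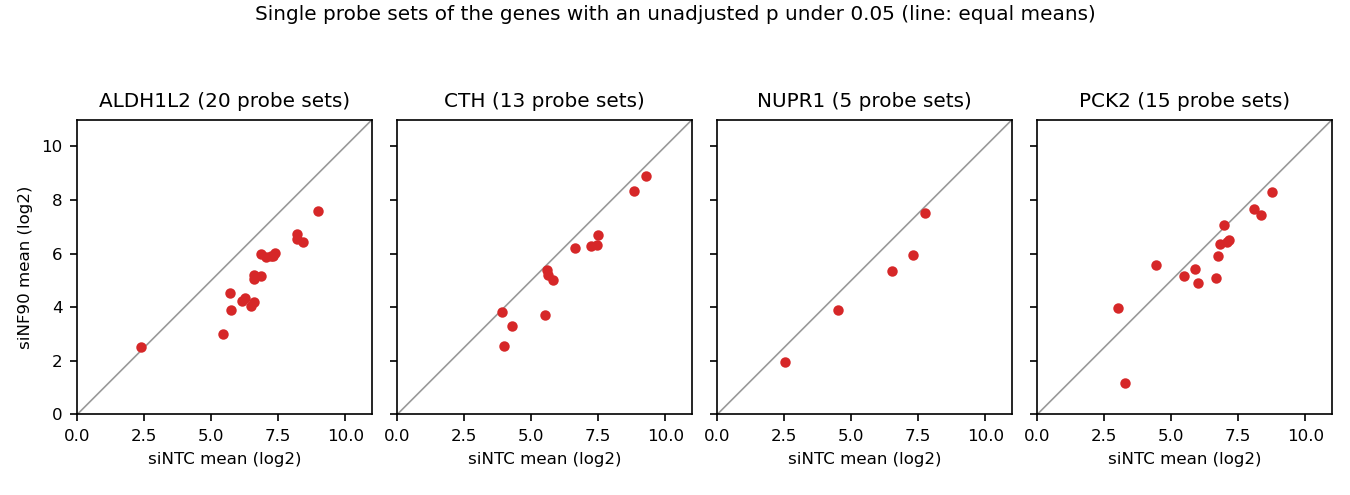
Each point is 1 probe set of ALDH1L2 (20), CTH (13), NUPR1 (5) or PCK2 (15), with its siNTC mean (log2, x axis) against its siNF90 mean (log2, y axis), and the line marks equal means. Of the points, 19 lie below the line in ALDH1L2, all lie below it in CTH and NUPR1, and 3 lie above it in PCK2.

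The promoters of 5 listed genes are printed to show the element that ATF4 and its C/EBP partners bind, beside genes that lay low here and lack its letters in the same window. That choice shows no link between the element and the direction. ASNS, which has it, also lay lower, and ATF4 and PHGDH, which lack it, lay higher. Sequences are from RefSeq (GRCh38.p14), 250 bases before to 50 after the annotated start, 5′ to 3′ on the strand of the gene. Capitals mark TGATGNAA, searched on both strands, where the reverse strand reads TTNCATCA. The windows are chr19:33373863-33374162 on the plus strand for CEBPG, chr7:97872359-97872658 on the minus strand for ASNS, and chr15:40953221-40953520 on the plus strand for CHAC1. Those without the element are chr1:70411018-70411317 on the plus strand for CTH and chr14:24094061-24094360 on the plus strand for PCK2.
CEBPG: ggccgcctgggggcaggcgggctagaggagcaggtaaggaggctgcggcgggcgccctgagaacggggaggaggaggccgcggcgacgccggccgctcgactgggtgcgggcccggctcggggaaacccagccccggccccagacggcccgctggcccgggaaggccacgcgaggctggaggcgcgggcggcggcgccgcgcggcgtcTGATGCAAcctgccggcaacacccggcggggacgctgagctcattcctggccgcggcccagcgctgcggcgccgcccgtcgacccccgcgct
ASNS: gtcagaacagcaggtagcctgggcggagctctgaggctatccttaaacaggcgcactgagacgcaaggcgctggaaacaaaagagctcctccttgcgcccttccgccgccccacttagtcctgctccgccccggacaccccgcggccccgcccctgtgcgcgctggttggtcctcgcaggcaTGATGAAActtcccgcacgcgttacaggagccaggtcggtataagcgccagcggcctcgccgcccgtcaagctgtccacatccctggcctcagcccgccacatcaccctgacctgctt
CHAC1: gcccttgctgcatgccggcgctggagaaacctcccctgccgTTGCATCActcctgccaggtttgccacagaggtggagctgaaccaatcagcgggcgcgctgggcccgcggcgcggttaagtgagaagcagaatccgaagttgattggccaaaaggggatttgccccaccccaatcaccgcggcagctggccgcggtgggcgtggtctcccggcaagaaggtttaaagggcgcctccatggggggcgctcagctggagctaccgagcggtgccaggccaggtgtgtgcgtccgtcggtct
CTH: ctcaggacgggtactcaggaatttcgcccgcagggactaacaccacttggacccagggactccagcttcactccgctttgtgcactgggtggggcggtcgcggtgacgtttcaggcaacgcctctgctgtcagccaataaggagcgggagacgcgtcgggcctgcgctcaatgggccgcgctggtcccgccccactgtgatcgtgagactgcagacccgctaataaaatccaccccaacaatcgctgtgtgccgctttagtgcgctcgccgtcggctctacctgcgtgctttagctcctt
PCK2: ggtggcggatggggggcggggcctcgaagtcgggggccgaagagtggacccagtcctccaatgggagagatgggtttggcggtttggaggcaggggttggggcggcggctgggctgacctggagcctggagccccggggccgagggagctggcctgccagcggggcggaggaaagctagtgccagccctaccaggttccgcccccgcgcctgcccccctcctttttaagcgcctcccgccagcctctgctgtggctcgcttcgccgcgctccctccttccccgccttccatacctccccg
The element began at base -42 from the start in CEBPG, at -68 in ASNS and, on the reverse strand, at -209 in CHAC1. Another annotated start of CEBPG, and of ASNS, had no match in its window.

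Promoter windows were matched by symbol for 31 of the 38 genes, some with several starts. The element was present in at least 1 window of 10 genes, ATF3, SLC1A4, MTHFD1L, ASNS, SLC3A2, SLC7A1, CHAC1, CEBPG, SLC1A5 and FGF21. That is 32.3% of the matched genes, against 4.46% of all 27305 genes in the table, and 23.1% of 52 windows, against 3.62% of all 35116 windows. The list was chosen for the ATF4 response, so this contrast describes the choice of genes and is not a test. Genes with the element differed in both directions in siNF90 cells, from -0.81 for MTHFD1L to 0.47 for CEBPG, with a median of -0.099. Without overlap, 2 of the 10 lay higher and 2 lower in siNF90 cells, where 19.2% of all genes lay higher and 22% lower. Among the 20 matched genes with a value and no element in the window, 5 lay higher and 5 lower without overlap, with a median difference of 0.014. Both sets were near the shares of all genes. A match of letters is a description and not evidence of a bound site. ALDH1L2 and NUPR1 were not among the matched genes.

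Among the transcription factors, ATF4, CEBPB, CEBPG and DDIT3 had positive differences of at most 0.47, and NUPR1, ATF5 and ATF3 negative ones. ATF4 had 8.08 and 8.01 on the siNF90 arrays, against 7.92 and 7.68 on the siNTC arrays. All 6 of its probe sets were higher, yet the 95% interval of its difference, 0.25 (SE 0.19), ran from -0.25 to 0.74. The adjusted p of ATF4 was 0.737 in limma, and its siNTC arrays lay -0.24 apart (second minus first). With the median of its probe sets the ATF4 difference was 0.035. CEBPG, which forms dimers with ATF4, had 6.30 and 6.40 in siNF90 cells, against 6.02 and 5.74 in siNTC cells. The groups did not overlap, all 5 probe sets were higher, and the difference was 0.47 (SE 0.20, 95% interval -0.040 to 0.99, adjusted p = 0.591 in limma). CEBPB, another C/EBP factor, had 5.86 and 6.03, against 5.58 and 5.61 in siNTC cells, a difference of 0.35 (SE 0.18, 95% interval -0.12 to 0.81). All 3 probe sets of CEBPB were higher, but the brightest by only 0.035 (8.82 against 8.78), and the groups were apart in 1 of the 3.

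DDIT3, the stress factor CHOP, had 3.97 and 3.74 in siNF90 cells, against 3.89 and 3.28 in siNTC cells, so its groups overlapped, with a difference of 0.27 (SE 0.27). ATF5, a relative of ATF4, had 2.98 and 2.49 in siNF90 cells, against 3.479 and 3.003 in siNTC cells. These ATF5 values lay not far above the dim filter of 2.13, and the gap between the closest arrays of the groups was small. The ATF5 difference was -0.50 (SE 0.28, 95% interval -1.24 to 0.23). ATF3, a stress-induced factor, averaged 4.05 ± 0.23 in siNF90 cells and 4.44 ± 0.84 in siNTC cells (SD, n = 2 each). Its siNTC arrays lay 1.18 apart, at 3.84 and 5.03, and its difference of -0.38 turned to 0.21 without the second siNTC array and to 0.038 with the median of probe sets.

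Among the stress effectors and secreted or surface targets, STC2 was the 1 gene whose groups did not overlap. Of these 8 genes, 0 were higher without overlap (0%, where 19.2% of all genes were) and 1 was lower (12.5%, where 22% of all genes were), and their median difference was -0.099. CHAC1, an enzyme that degrades glutathione, had 4.16 and 3.46 in siNF90 cells, against 3.61 and 4.17 in siNTC cells, and the groups covered the same range. Its difference was -0.080 (SE 0.34, 95% interval -0.97 to 0.81), and it was 0.27 without the second siNF90 array and 0.20 without the second siNTC array. TRIB3, a pseudokinase that feeds back on ATF4, had 5.92 and 6.07 in siNF90 cells, against 5.46 and 6.13 in siNTC cells. The siNTC arrays of TRIB3 enclosed both siNF90 arrays, and the difference of 0.20 (SE 0.28) turned to -0.13 without the first siNTC array. STC2, the secreted glycoprotein stanniocalcin 2, had 6.23 and 6.54 in siNF90 cells, against 6.69 and 6.75 in siNTC cells. The STC2 difference of -0.33 (SE 0.20, 95% interval -0.85 to 0.19) was at odds with 5 of its 8 probe sets, which were higher, and it was 0.24 with the median of probe sets.

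The remaining effectors overlapped between the groups. DDIT4, an inhibitor of mTORC1 signalling, differed by -0.12 (SE 0.21), and SESN2, a leucine sensor of the same pathway, by 0.15 (SE 0.20). EIF4EBP1, a repressor of cap-dependent translation, differed by 0.18 (SE 0.23), and VLDLR, a lipoprotein receptor, by -0.18 (SE 0.28). FGF21, a hormone secreted by the liver, had 2.03 and 2.24 in siNF90 cells, against 1.51 and 3.16 in siNTC cells, from 1 of its 5 probe sets. DDIT4 turned to 0.075 and VLDLR to 0.065 without the second siNF90 array, and FGF21 to 0.63 without the second siNTC array. EIF4EBP1 was -0.051 without the dim filter and 0.73 with the median of probe sets.

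**Figure D3:**
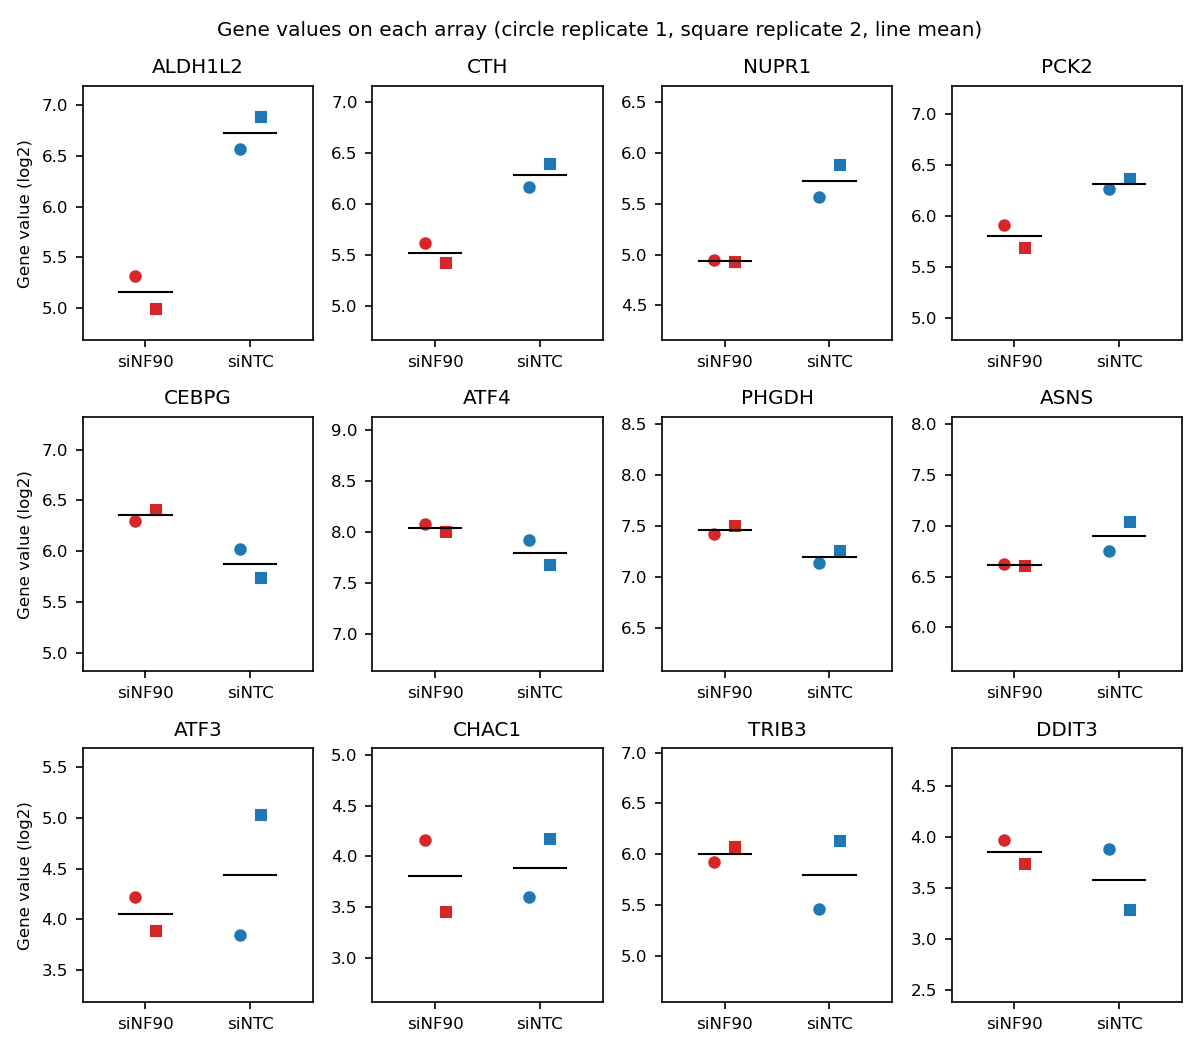
Gene values (log2, y axis, each panel spanning 2.5 units) of 12 genes on each array, with siNF90 in red on the left, siNTC in blue on the right and a line at each mean. ALDH1L2, CTH, NUPR1 and PCK2 lie lower on both siNF90 arrays, CEBPG, ATF4 and PHGDH lie higher, and the siNTC arrays of ATF3, CHAC1, TRIB3 and DDIT3 stand as far apart as the groups or farther.

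In serine synthesis, the first steps lay slightly higher in siNF90 cells and the last slightly lower. PHGDH, which commits a glycolytic intermediate to serine, had 7.42 and 7.50 in siNF90 cells, against 7.14 and 7.25 in siNTC cells. Of its 17 probe sets 15 were higher, and its difference was 0.27 (SE 0.18, 95% interval -0.19 to 0.72, adjusted p = 0.700 in limma). PSAT1, the following aminotransferase, had 9.23 and 9.12, against 9.06 and 8.97 in siNTC cells, a difference of 0.16 (SE 0.18, 95% interval -0.30 to 0.62). PSPH, the final phosphatase, had 6.63 and 6.49, against 6.79 and 6.69 in siNTC cells, a difference of -0.18 (SE 0.18, 95% interval -0.65 to 0.28). In each of the 3 genes the groups did not overlap, as in 41.1% of all genes, and the interval included 0.

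Of the 6 folate enzymes with a value, ALDH1L2 and MTHFD1L had the largest differences and both lay lower, and the other 4 differed by between -0.28 and 0.094. SHMT2, the mitochondrial serine hydroxymethyltransferase, had 6.37 and 6.27 in siNF90 cells, against 6.23 and 6.31 in siNTC cells. The groups overlapped, and the difference was 0.049 (95% interval -0.41 to 0.51). MTHFD2, the next mitochondrial enzyme, had 7.05 and 6.98 in siNF90 cells, against 7.19 and 7.14 in siNTC cells. The MTHFD2 difference of -0.15 (SE 0.17, 95% interval -0.60 to 0.30) stood against 7 of 12 probe sets that were higher, with 1 at -1.98, and it was 0.12 with their median. MTHFD1L, the mitochondrial formyltetrahydrofolate synthetase, had 1.91 and 2.53 in siNF90 cells, against 3.50 and 2.56 in siNTC cells. Its closest arrays were almost equal and the 1 probe set used was dim, so its difference of -0.81 (SE 0.40, 95% interval -1.87 to 0.24) is given without a fold. The cytosolic MTHFD1, with several activities in 1 protein, differed by 0.094 (SE 0.19). ALDH1L1, the cytosolic counterpart of ALDH1L2, averaged 3.24 ± 0.010 in siNF90 cells and 3.52 ± 0.46 in siNTC cells (SD, n = 2 each). Its difference of -0.28 (SE 0.27, 95% interval -0.99 to 0.42) was 0.038 without the first siNTC array. Whether ALDH1L1 and ALDH1L2 differed from each other in response was not tested.

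Of the other amino acid enzymes, CTH and PCK2 were described above, and ASNS also lay lower. ASNS, asparagine synthetase, had 6.63 and 6.60 in siNF90 cells, against 6.76 and 7.04 in siNTC cells. It was lower in 11 of 13 probe sets, by -0.28 for the gene (SE 0.19, 95% interval -0.79 to 0.22, adjusted p = 0.708 in limma), but 0.076 with the median of probe sets. CBS, which makes the cystathionine that CTH cleaves, overlapped between groups and differed by -0.17 (SE 0.21). GPT2, the mitochondrial alanine transaminase, had 6.15 and 6.08 in siNF90 cells, against 5.95 and 6.06 in siNTC cells, a difference of 0.11 (SE 0.17). The proline enzymes ALDH18A1 and PYCR1 differed by 0.012 (95% interval -0.43 to 0.46) and 0.10 (95% interval -0.37 to 0.57). The values of ALDH18A1 lay between 8.06 and 8.09 on all 4 arrays.

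For 5 of 6 amino acid transporters the difference was positive, with a median of 0.14 over the 6, and 0 passed the limma threshold. SLC38A2, a sodium-coupled carrier of small neutral amino acids, had 9.66 and 9.65 in siNF90 cells, against 9.43 and 9.49 in siNTC cells. Its groups did not overlap, and its difference was 0.20 (SE 0.17, 95% interval -0.25 to 0.65), or -0.040 with the median of probe sets. SLC1A5, a glutamine carrier, had 6.88 and 6.92 in siNF90 cells, against 6.81 and 6.80 in siNTC cells. The SLC1A5 difference was 0.099 (SE 0.17), or -0.16 with the median of probe sets. SLC1A4, a related carrier of serine and alanine, differed by 0.28 (SE 0.21) with overlap. SLC3A2 and SLC7A5, which together form a carrier of large neutral amino acids, differed by 0.19 (SE 0.25) and 0.015 (SE 0.19). SLC7A1, a carrier of cationic amino acids, had the negative difference of -0.12 (SE 0.21). With the median of probe sets, SLC1A4 was at -0.13 and SLC7A5 at -0.078, so the sign of 4 of the transporters depended on how probe sets were summarised.

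**Figure D4:**
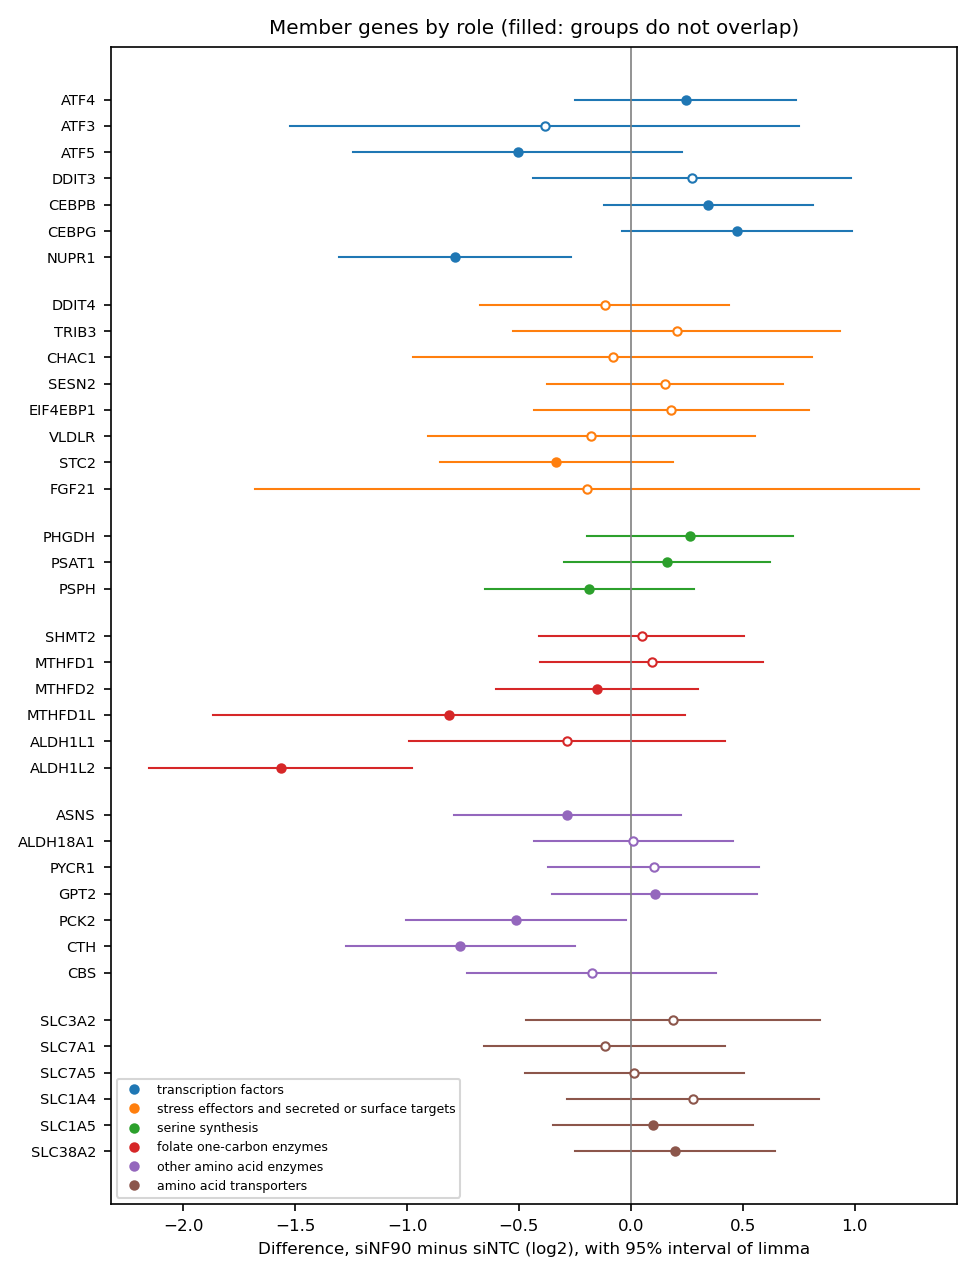
Difference siNF90 minus siNTC (log2, x axis) of the 37 genes, grouped by role and colour, with the 95% interval of the limma fit as a bar. Filled points mark genes whose groups do not overlap. The intervals of ALDH1L2, CTH, NUPR1 and PCK2 lie below 0, and those of the other 33 genes include 0.

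Differences between arrays of the same group were as large as those between groups in much of the list. In 10 of the 37 genes the siNF90 arrays differed by more than the group means did, and in 18 the siNTC arrays did. In 20 genes at least 1 of the pairs did so. The same counts were not taken over all genes. Differences of single arrays vary more than differences of group means, so these counts show nothing particular to the list. The genes with the widest siNTC pair were FGF21 at 1.65 and ATF3 at 1.18, with the second array higher, and MTHFD1L at -0.94, with the second array lower. For ALDH1L2 the siNF90 pair differed by -0.33 and the siNTC pair by 0.31 (second minus first).

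Other genes of the same pathways, from a list of 69 of which 63 were tested, gave 0 limma calls in either direction and 1 with the trend and robust prior (1.59%), which was lower. Without overlap, 25 (39.7%) were lower and 9 (14.3%) higher in siNF90 cells, beside 22% and 19.2% of all genes. MTR, methionine synthase, was the 1 called with that prior. It had 5.81 and 5.85 in siNF90 cells, against 6.94 and 6.80 in siNTC cells. All but 1 of its 31 probe sets were lower, and its difference of -1.04 (SE 0.18, 95% interval -1.50 to -0.58), or 2.05-fold lower, had an adjusted p of 0.514 in limma and 0.0252 with the trend and robust prior. AGXT, a peroxisomal enzyme that turns glyoxylate into glycine, had 4.69 and 4.36 in siNF90 cells, against 5.54 and 5.50 in siNTC cells, a difference of -1.001 (SE 0.20).

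PPP1R15A, the stress-induced subunit that directs a phosphatase to eIF2, had 5.18 and 5.15 in siNF90 cells, against 4.39 and 4.25 in siNTC cells. Its difference was 0.84 (SE 0.17, 95% interval 0.38 to 1.30, adjusted p = 0.514 in limma), and each of the 4 probe sets was higher. In the second list an unadjusted limma p under 0.05 was found for 1 higher gene, PPP1R15A (1.59%, beside 3.51% of all genes), and 4 lower genes (6.35%, beside 5.29%). DMGDH, a mitochondrial enzyme of choline breakdown, had 2.84 and 2.65 in siNF90 cells, against 3.337 and 3.998 in siNTC cells. SRR, serine racemase, had 4.37 and 4.30, against 5.10 and 4.83 in siNTC cells. SFXN1, which carries serine into mitochondria, had 6.23 and 5.99, against 6.53 and 6.70 in siNTC cells. The differences were -0.92 (SE 0.28) for DMGDH, -0.63 (SE 0.19) for SRR and -0.50 (SE 0.19) for SFXN1, and the groups did not overlap in any of the 3.

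The Huh7 label was checked against markers. Of 10 hepatocyte markers 9 had a value, at means of 9.38 and 9.33 on the siNF90 arrays and 9.55 and 9.46 on the siNTC arrays, with ALB between 10.6 and 11.1. The 5 fibroblast markers had means of 2.98 and 3.15 on the siNF90 arrays and 3.09 and 3.40 on the siNTC arrays. The 3 endothelial markers tested had 3.23 and 3.28 on the siNF90 arrays, against 2.90 and 2.90 on the siNTC arrays. The 4 leukocyte markers with a value had means of 4.75 and 4.44 on the siNF90 arrays, against 4.34 and 4.11 on the siNTC arrays. LYZ lay between 8.92 and 9.15, PTPRC between 2.85 and 3.80, CD14 between 2.53 and 3.52 and CD163 between 1.17 and 2.89. The 3 bile duct markers with a value had means of 5.82 and 5.82 on the siNF90 arrays, against 5.85 and 6.08 on the siNTC arrays. KRT19 and EPCAM lay between 6.97 and 7.63, and CFTR between 3.13 and 3.48. The endothelial and leukocyte means were higher, and the hepatocyte and bile duct means lower, on both siNF90 arrays than on either siNTC array. Single markers did not all follow. APOB, TTR and SERPINA1 differed by 0.22, 0.25 and 0.13, while the other hepatocyte markers with a value were lower. KRT19 differed by 0.12, while EPCAM and CFTR were lower. All leukocyte markers with a value were higher, from 0.025 for PTPRC to 0.95 for CD163, which had 2 of 21 probe sets kept. Medians of all probe sets were between 2.72 and 2.79 on the 4 arrays. The part of these marker levels in the results was not tested.

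**Figure D5:**
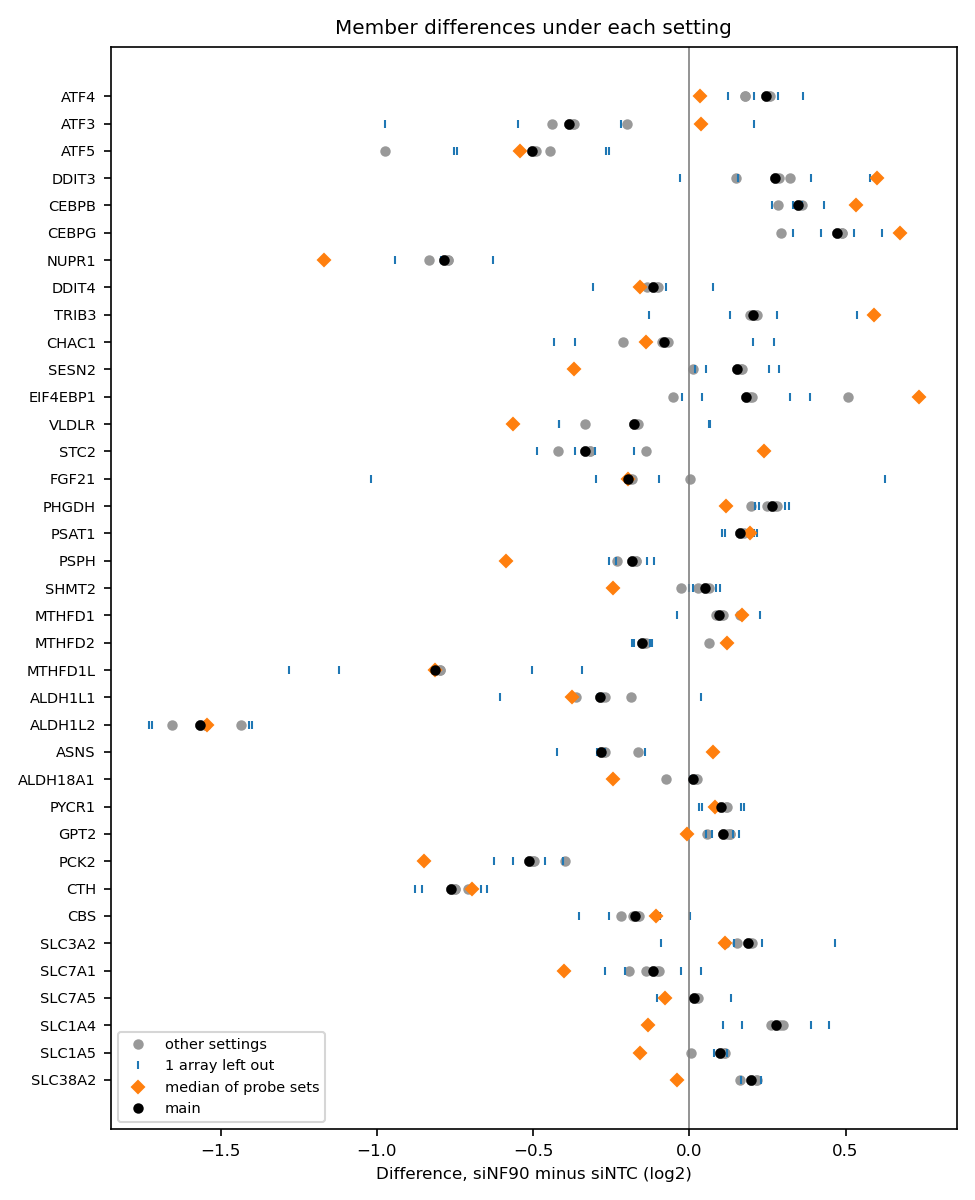
Difference siNF90 minus siNTC (log2, x axis) of the 37 genes under the main setting (black) and up to 14 others, with the median of probe sets in orange and fits that leave out 1 array as blue bars. ALDH1L2 stays between -1.73 and -1.40, CTH between -0.88 and -0.65 and NUPR1 between -1.17 and -0.63, whereas 24 genes have values on both sides of 0.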

How the data were processed

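Per the labels, total RNA was amplified, labelled with biotin and hybridised to 1-colour Affymetrix arrays, and the authors deposited log2 values made by RMA-sketch in Affymetrix Expression Console. RMA corrects background, normalizes quantiles and summarises probes. The log base was taken from the method and the values. Neither the program version nor a genome build was given in the sources used here.

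Of 352859 probe sets, the 257971 with 1 symbol in the platform's table were eligible. Those whose mean over 4 arrays reached the 40th percentile of all probe sets (2.13) were kept, 171120 in 19140 genes, and averaged per gene. Identical values of neighbouring probe sets were not removed in the main setting. Limma 3.58.1 (R 4.3.3; lmFit, eBayes, two-sided, no covariate) was fitted to all genes with Benjamini-Hochberg adjustment, and standard errors and intervals are from this fit. An exact permutation test of 2 against 2 arrays cannot go below p = 0.333, so none is given. The 2 arrays per group limit the precision.

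The genes, role groups and second pathway list were chosen with earlier results of these data known. By rule, values on each array are given for genes without overlap or with an unadjusted p under 0.05 and for ATF4, DDIT3, CHAC1, TRIB3, ASNS, PHGDH, PSAT1, SHMT2 and MTHFD2, and for the 6 second-list genes with the smallest p. Further values on single arrays were added after they were seen. No fold is given where the lower group mean is under the array median of all probe sets. Alternatives changed the filter, the summary, the normalization, the prior, the block or the arrays used.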

Additional observations from a re-analysis of the deposited data

How the results depend on the processing

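Of the 37 genes, 13 kept the sign of their difference under every alternative that gave them a value (12 for MTHFD1L, 14 for the others), ALDH1L2, CTH, NUPR1, PCK2, ATF4, CEBPB, CEBPG, ATF5, PHGDH, PSAT1, PSPH, PYCR1 and MTHFD1L. The other 24 changed sign under at least 1, 10 of them only when an array was left out. The cause was not tested. The trend and robust prior and the block left every difference as it was by construction. The filters on the number or share of probe sets did so for each gene they retained. With the median of probe sets the differences were ATF3 0.038, SESN2 -0.37, STC2 0.24, SHMT2 -0.24, MTHFD2 0.12, ASNS 0.076, ALDH18A1 -0.24, GPT2 -0.0080, SLC7A5 -0.078, SLC1A4 -0.13, SLC1A5 -0.16 and SLC38A2 -0.040, and the median over the list was -0.11. Without the dim filter they were EIF4EBP1 -0.051, FGF21 0.0017 and SHMT2 -0.028, and MTHFD2 was 0.062 and ALDH18A1 -0.074 when the filter stood at the 60th percentile.

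When 1 array was left out, ranges that crossed 0 were -0.97 to 0.21 for ATF3, -0.030 to 0.58 for DDIT3, -0.31 to 0.075 for DDIT4, -0.13 to 0.54 for TRIB3, -0.43 to 0.27 for CHAC1, -0.023 to 0.39 for EIF4EBP1, -0.42 to 0.065 for VLDLR, -1.02 to 0.63 for FGF21, -0.0014 to 0.099 for SHMT2, -0.039 to 0.23 for MTHFD1, -0.61 to 0.038 for ALDH1L1, -0.35 to 0.0032 for CBS, -0.091 to 0.47 for SLC3A2, -0.27 to 0.036 for SLC7A1 and -0.10 to 0.14 for SLC7A5. A lone array is then assumed to vary like the other group. The median over the list ran from -0.023 to 0.075. Counts of genes above ran from 10 to 17 and below from 12 to 17, and those with an unadjusted p under 0.05 and lower from 2 to 5. A group of 1 array overlaps less often by construction. Shares of all genes were not taken for the fits that leave out 1 array. The rise over the main setting and the range of these counts therefore show nothing particular to the list.

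Past the adjusted threshold, limma called 48 of all genes and 1 of the list, ALDH1L2 at 0.0148, with the trend and robust prior, which also gave MTR 0.0252. Without the dim filter it called 4 of all genes and 0 of the list. Over all alternatives the adjusted p of ALDH1L2 ran from 0.0148 to 0.842. An unadjusted p under 0.05 with a higher value was found in 3 genes with the trend and robust prior, and in 1 without the dim filter, with the filter at the 60th percentile, with the median of probe sets, with at least 3 probe sets and with at least 50% of probe sets kept. The lower count was 7 without the dim filter. Shares of all genes with such a p were not taken under these settings, so these counts show nothing particular to the list. The replicate numbers do not pair the arrays by the labels, and deviations of same-numbered arrays correlated at -0.0118 over all genes. With the replicate number as a block, ALDH1L2 had an adjusted p of 0.615, and limma called 0 genes. A block cannot change the difference itself in this balanced design. FGF21 and MTHFD1L had no value under the filters that remove their single probe set. The mean over the list stayed between -0.14 and -0.072.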
